A study of Mus musculus with 16 samples.

Results

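The genes described here are those that drive a cell through G1, the growth phase before DNA replication. They are the D-type cyclins *Ccnd1*, *Ccnd2* and *Ccnd3*, the E-type cyclins *Ccne1* and *Ccne2*, the cyclin-dependent kinases *Cdk2*, *Cdk4* and *Cdk6*, the pocket protein gene *Rb1* and the transcription factor gene *E2f1*. Members were chosen by gene symbol, and all 10 were found among the 30386 genes of the table. All 10 also passed the filter on low values (over 1 CPM, counts scaled to the sample's total reads, in at least 4 of 16 samples), which left 12533 genes for testing. The samples were neural stem/progenitor cell (NSPC) cultures derived from the subventricular zone (SVZ) of 3-month-old C57BL/6 J/Babr mice. The *GFP*-NSPC group (n = 8) carried a constitutive *GFP* transgene from a pTP6 plasmid and the *Dbx2*-NSPC group (n = 8) a constitutive *Dbx2* transgene from the same kind of plasmid. Both were selected and kept in puromycin, grown in bulk, and collected from non-adherent cultures in medium with EGF and FGF2. For RNA-seq the study used both of its pairs of independently derived transgenic lines, with 4 independent experiments per pair. The 8 cultures of a group are thus repeat cultures of few lines and not 8 separate lines. The labels give only the transgene and a replicate number from 1 to 8, so no sample was assigned to a line. Each comparison is therefore given over all samples and again within the cultures numbered 1 to 4 (set 1 to 4) and those numbered 5 to 8 (set 5 to 8). Nothing in the labels says that samples of the same number set came from separate animals, so p-values measure the spread between these cultures only.

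When growth factors such as EGF and FGF2 are present, cells make D-type cyclins, which bind and activate Cdk4 and Cdk6. These kinases phosphorylate Rb1, which otherwise holds E2F factors inactive. Freed E2F factors switch on genes for DNA replication, including the E-type cyclins, and cyclin E with Cdk2 completes the phosphorylation of Rb1 and starts S phase. In the SVZ, quiescent stem cells must pass through this sequence to become dividing progenitors, and CDK inhibitors such as p21 and p27 oppose it.

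Of the kinases, *Cdk4* and *Cdk2* had lower RNA levels in *Dbx2*-NSPCs in both number sets, and they lie 1.63 Mb apart on chromosome 10, whose 613 tested genes had a negative median of their own (log2 fold change -0.37 over all samples). Their promoters are shown because they are the members that fell in all 3 comparisons. Promoter sequences were from RefSeq (GRCm38.p6), from 250 bases before to 50 bases after the annotated start, and 6 of the 10 members had an entry. The *Cdk4* window is chr10:127063285-127063584 on the + strand and the *Cdk2* window is chr10:128705002-128705301 on the - strand, each printed 5′ to 3′ along its own gene. In the *Cdk4* promoter, capitals mark the E-box CACGTG, the palindrome bound by Myc and related factors. In the *Cdk2* promoter, capitals mark the reverse complement of TTTCCCGC, one of the 4 spellings searched for the E2F site (TTTCCCGC, TTTCGCGC, TTTGCCGC and TTTGGCGC, both strands).
Cdk4 promoter: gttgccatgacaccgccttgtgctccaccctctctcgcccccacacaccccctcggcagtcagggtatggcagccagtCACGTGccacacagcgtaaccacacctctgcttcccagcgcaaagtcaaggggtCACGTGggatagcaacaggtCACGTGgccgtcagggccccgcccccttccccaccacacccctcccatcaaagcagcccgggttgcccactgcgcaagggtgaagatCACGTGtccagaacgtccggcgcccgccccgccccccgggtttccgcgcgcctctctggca
Cdk2 promoter: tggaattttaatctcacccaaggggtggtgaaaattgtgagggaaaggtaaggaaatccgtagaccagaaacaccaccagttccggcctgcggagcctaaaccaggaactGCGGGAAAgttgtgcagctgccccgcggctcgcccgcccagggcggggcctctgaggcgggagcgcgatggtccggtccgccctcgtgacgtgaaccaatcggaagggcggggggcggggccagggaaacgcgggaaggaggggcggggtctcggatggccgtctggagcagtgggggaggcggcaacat

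The *Cdk4* window held 4 copies of CACGTG, whose first letters lie at -172, -118, -98 and -11 from the start. At least 1 copy was present in 7.15% of the 32851 mouse promoters of the same length, and 4 or more copies in 8 of them, *Cdk4* included. The *Cdk2* window held 1 match to the E2F letters, at -140, a match that 2.265% of all promoters have in any of the 4 spellings. The *Cdk2* window also held CCAAT at -45, which 37.41% of promoters contain on either strand. No E2F letters were matched in the windows of the other members with an entry. Of these, only the *Cdk6* window held CACGTG, a single copy at -220. The *E2f1* window (chr2:154569377-154569676, - strand) and the *Cdk6* window (chr5:3343643-3343942, + strand) lie inside their genes. By the gene positions used here those genes begin at 154569892 and 3341485, so the DNA before these starts was not searched. These are matches of letters, and the factors themselves were not measured on this DNA.

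The libraries held 1803928 to 3293285 recovered reads, so a single read equalled 0.304 to 0.554 CPM and the detection floor of 3 reads equalled 0.911 to 1.66 CPM. Floors cover counting error only, since no molecular identifiers were described for the reads. Libraries were made with QuantSeq, which reads the transcript near its poly-A end, so levels are CPM without division by gene length. Genes are not ranked by level, and ratios and sums of genes are read between groups or against the floor. *Dbx2*, the targeted gene, averaged 155 ± 35.4 CPM with its transgene and 77.2 ± 51.8 CPM with *GFP* (SD, n = 8 each; log2 fold change 1.26, limma adjusted p = 0.00978). Its groups overlapped in set 1 to 4 (89.31 to 171.22 CPM in *GFP*-NSPCs against 135.99 to 232.13 CPM; log2 fold change 0.54, limma adjusted p = 0.0891, or 0.00557 with the replicate number as a block). Without *GFP*-NSPC replicate 1 that adjusted p was 0.0112, and without *Dbx2*-NSPC replicate 4 it was 0.0460. In set 5 to 8 *Dbx2* was at 30.67 to 39.48 CPM against 114 to 155.22 CPM (log2 fold change 1.99, limma adjusted p = 5.67e-08). The stem and progenitor markers *Nes* (454.03 to 1253.47 CPM over both groups) and *Sox2* (228.92 to 580.31 CPM) were present in all samples, as was the proliferation marker *Mki67* (275.56 to 517.6 CPM). The summed level of 5 microglial markers was at most 1.84 CPM with *GFP* and 1.96 CPM with *Dbx2*, close to the floor. The RNA came from whole cultures, so fewer cells expressing a gene and less of its RNA per cell cannot be told apart.

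Over all samples, 3 of the 10 genes passed the test at an adjusted p under 0.05 (limma on log2(CPM + 0.5), adjusted over all tested genes). *Ccnd1* was higher in *Dbx2*-NSPCs, against 8.03% of all tested genes called higher, and *Cdk2* and *Cdk4* were lower, against 7.78% called lower; 15.8% of tested genes were called in all. In set 1 to 4, where 15.6% of genes were called (8.19% higher, 7.37% lower), 4 of the 10 passed: *Ccnd2* and *Ccne1* higher, *Cdk2* and *Cdk4* lower. In set 5 to 8, where 23.2% were called (11.5% higher, 11.7% lower), 4 of the 10 passed: *Ccnd1* higher, *Ccne2*, *Cdk2* and *Cdk4* lower. The groups did not overlap for 1 member over all samples, 5 members in set 1 to 4 and 3 in set 5 to 8, beside 3.41%, 19.6% and 24.8% of all tested genes. The effect differed between the number sets, by the interaction of transgene and set, for 2 of the 10 (*Ccnd2* and *Ccne1*), where 9.44% of all genes were called. The median log2 fold change of the 10 genes was 0.11 over all samples, 0.26 in set 1 to 4 and -0.22 in set 5 to 8, beside medians of -0.02, -0.04 and -0.01 over all tested genes.

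**Figure D1:**
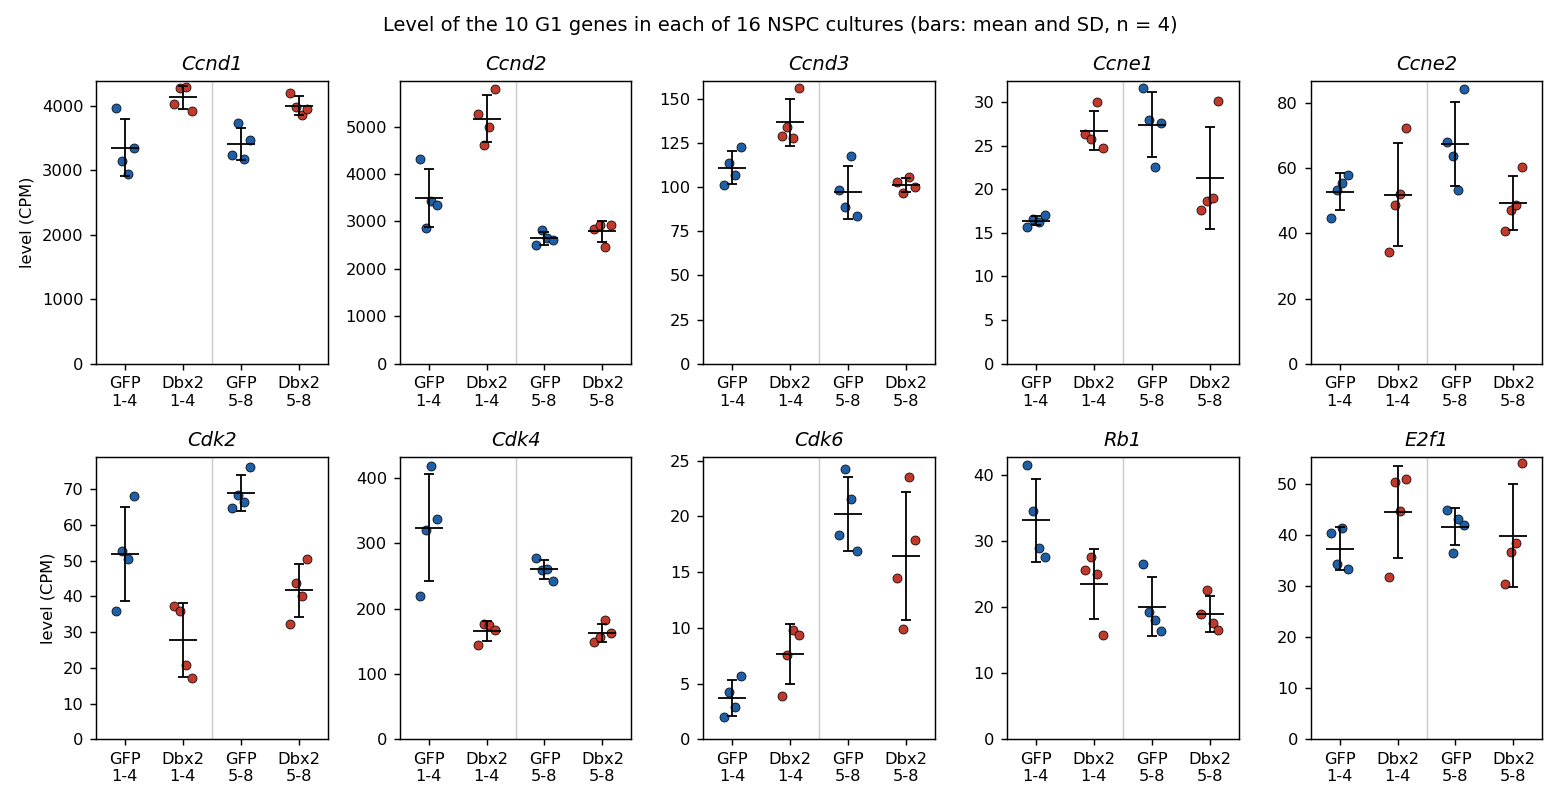
Level in CPM (vertical axis, linear, from 0) of the 10 G1 genes in each culture, split by transgene and number set; points are samples and bars the mean and SD (n = 4). *Cdk4* is lower in every *Dbx2*-NSPC culture (144.48 to 181.94 CPM) than in any *GFP*-NSPC culture (219.16 to 418.7 CPM), while *Ccne1* averages 26.7 CPM with *Dbx2* and 16.4 CPM with *GFP* in set 1 to 4, and 21.3 and 27.4 CPM in set 5 to 8.

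*Cdk4* (chromosome 10, 127063534 to 127067920, + strand, GRCm38) encodes the kinase partner of the D-type cyclins. Its level in *GFP*-NSPC replicates 1 to 4 was 219.16, 320.61, 418.7 and 337.24 CPM, and replicates 5 to 8 had 277.06, 259.79, 261.26 and 241.81 CPM. *Dbx2*-NSPC replicates 1 to 4 held 144.48, 176.64, 175.19 and 167.56 CPM, and replicates 5 to 8 held 148.89, 156.55, 181.94 and 163.08 CPM. All 8 *Dbx2*-NSPC cultures lay below all 8 *GFP*-NSPC cultures, and the *GFP*-NSPC replicates numbered 1 to 4 were the most spread. The fall was 1.75-fold over all samples (log2 fold change -0.80, standard error 0.109, limma adjusted p = 4.31e-05). An exact 2-sided permutation test of the 8 against 8 values gave p = 0.000155, the smallest that 12870 splits allow. Within the sets the log2 fold change was -0.93 in set 1 to 4 (limma adjusted p = 0.00262) and -0.68 in set 5 to 8 (limma adjusted p = 3.49e-05), and the interaction did not pass the test (difference 0.25, adjusted p = 0.476). In each set the exact permutation p was 0.0286, the smallest that 4 against 4 samples allow.

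*Cdk2* (chromosome 10, 128697939 to 128705031, - strand) encodes the kinase partner of cyclins E and A. Its level in *GFP*-NSPC replicates 1 to 4 was 35.86, 52.55, 50.5 and 67.98 CPM, and replicates 5 to 8 had 64.83, 68.4, 66.25 and 76.08 CPM. *Dbx2*-NSPC replicates 1 to 4 had 37.24, 35.81, 20.84 and 17.22 CPM, and replicates 5 to 8 had 32.38, 43.8, 40.18 and 50.31 CPM. The groups were apart in set 5 to 8 and overlapped in set 1 to 4, where *GFP*-NSPC replicate 1 was as low as the *Dbx2*-NSPC replicates 1 and 2. The fall was 1.78-fold over all samples (log2 fold change -0.83, standard error 0.201, limma adjusted p = 0.00774; exact permutation p = 0.00155), with log2 values of -0.93 in set 1 to 4 (limma adjusted p = 0.0312) and -0.73 in set 5 to 8 (limma adjusted p = 0.00105). Its call in set 1 to 4 was lost with the replicate number as a block (limma adjusted p = 0.0567), with eBayes without trend (0.0816), and without any one of *GFP*-NSPC replicates 2, 3 and 4 or *Dbx2*-NSPC replicates 3 and 4 (limma adjusted p from 0.0573 to 0.107). The log2 ratio of *Cdk2* to *Cdk4* averaged -2.27 ± 0.451 with *GFP* and -2.30 ± 0.561 with *Dbx2* (SD, n = 8 each).

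*Cdk6* (chromosome 5, 3341485 to 3531008, + strand), the other partner of the D-type cyclins, was a low gene whose level depended on the number set. In *GFP*-NSPC replicates 1 to 4 it was at 2.01, 4.23, 2.93 and 5.67 CPM, against 18.29, 24.23, 21.52 and 16.86 CPM in replicates 5 to 8. In *Dbx2*-NSPC replicates 1 to 4 it was at 3.85, 7.59, 9.77 and 9.33 CPM, against 14.43, 9.94, 23.48 and 17.89 CPM in replicates 5 to 8. *Cdk6* passed the test in none of the 3 comparisons (log2 fold change 0.31 over all samples, 0.96 in set 1 to 4 and -0.34 in set 5 to 8; limma adjusted p = 0.722, 0.107 and 0.339). Without *Dbx2*-NSPC replicate 1 the value in set 1 to 4 was 1.23 (limma adjusted p = 0.0423). The difference of effect between the sets was -1.30 (limma adjusted p = 0.0661) and passed with the replicate block (0.0332) and without *GFP*-NSPC replicate 4 (0.0325), *Dbx2*-NSPC replicate 1 (0.0145) or *Dbx2*-NSPC replicate 7 (0.0430). The log2 ratio of *Cdk4* to *Cdk6* in set 1 to 4 was 5.77 to 6.93 in *GFP*-NSPCs and 4.10 to 5.06 in *Dbx2*-NSPCs, with no overlap, while in set 5 to 8 the ranges overlapped.

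**Figure D2:**
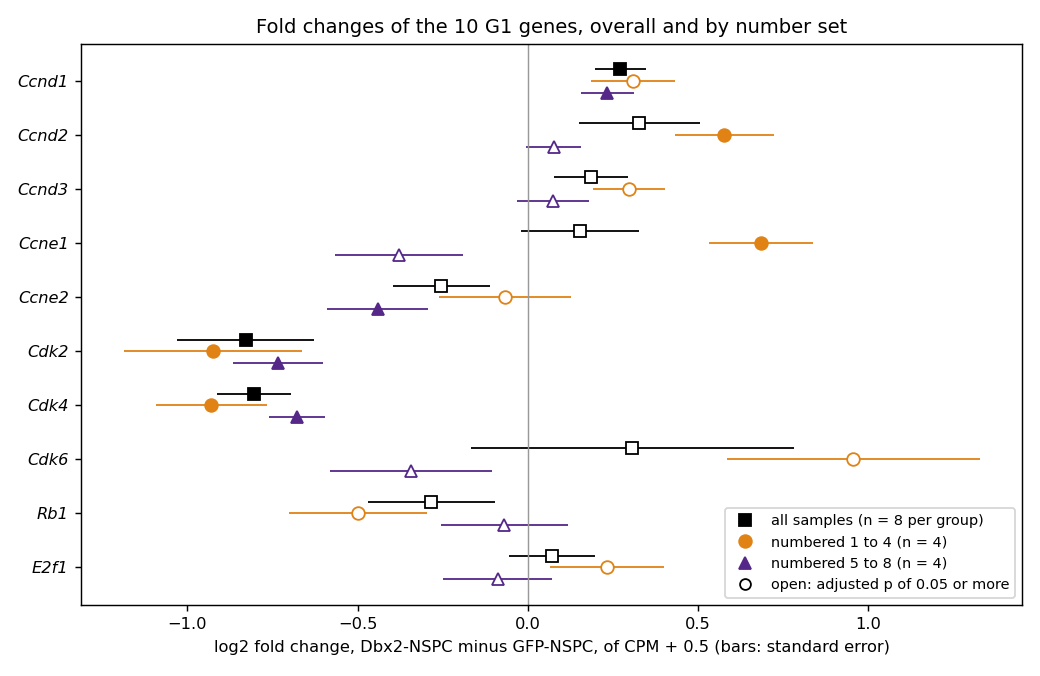
Log2 fold change of CPM + 0.5 (horizontal axis, *Dbx2*-NSPC minus *GFP*-NSPC) of the 10 G1 genes over all samples and in each number set; bars are standard errors and filled symbols passed the test. *Cdk2* and *Cdk4* lie between -0.93 and -0.68 in all 3 comparisons, and *Ccne1* lies at 0.68 in one set and -0.38 in the other.

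The D-type cyclins had positive fold changes over all samples and in each set, but not all passed the test. *Ccnd1* (chromosome 7, 144929931 to 144939925, - strand), the D cyclin most tied to growth factor signals, was at 3957.77, 3143.29, 2948.14 and 3352.76 CPM in *GFP*-NSPC replicates 1 to 4 and at 3243.27, 3732.5, 3179.81 and 3466.37 CPM in replicates 5 to 8. In *Dbx2*-NSPC replicates 1 to 4 it was at 4031.61, 4278.47, 4288.87 and 3917.79 CPM, and in replicates 5 to 8 at 4205.45, 3975.93, 3858.11 and 3951.35 CPM. Only *GFP*-NSPC replicate 1 reached the *Dbx2*-NSPC range. The rise was 1.21-fold over all samples (log2 fold change 0.27, standard error 0.0743, limma adjusted p = 0.0169; exact permutation p = 0.000622) and was not past the threshold when genes of low level were kept (0.0990). For *Ccnd1* in set 1 to 4, the value was 0.31 (limma adjusted p = 0.118, or 0.0267 without *GFP*-NSPC replicate 1; edgeR on the recovered reads gave 0.0438 and DESeq2 0.0235). In set 5 to 8 the groups did not overlap and the value was 0.23 (limma adjusted p = 0.0456), a call that was lost without any one of *GFP*-NSPC replicates 5, 7 and 8 or any *Dbx2*-NSPC replicate of that set (limma adjusted p from 0.0575 to 0.130). The interaction for *Ccnd1* did not pass (-0.08, adjusted p = 0.820).

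*Ccnd2* (chromosome 6, 127125162 to 127152193, - strand), the D cyclin prominent in neural progenitors, was at 4327.6, 2868.89, 3421.9 and 3343.09 CPM in *GFP*-NSPC replicates 1 to 4 and at 5262.25, 4615.66, 4992.24 and 5795.42 CPM in *Dbx2*-NSPC replicates 1 to 4. In replicates 5 to 8 it was at 2495.21, 2815.4, 2651.84 and 2606.87 CPM in *GFP*-NSPCs and 2849.63, 2922.31, 2458.16 and 2926.97 CPM in *Dbx2*-NSPCs. The groups were apart in set 1 to 4 and overlapped in set 5 to 8. The rise was 1.49-fold in set 1 to 4 (log2 fold change 0.58, limma adjusted p = 0.0184), and the value in set 5 to 8 was 0.08 (limma adjusted p = 0.550). Without *GFP*-NSPC replicate 2, 3 or 4 or *Dbx2*-NSPC replicate 3 the adjusted p in set 1 to 4 was 0.0524 to 0.0692. The difference between the sets was -0.50 (limma interaction, adjusted p = 0.0480). That call was close to the threshold: it was lost without any one of 14 of the 16 samples, all but *GFP*-NSPC replicate 1 and *Dbx2*-NSPC replicate 2, with adjusted p up to 0.121. Over all samples *Ccnd2* did not pass (0.33, limma adjusted p = 0.235), but it passed with the replicate block (0.0284) or with the number set as a covariate (0.0171).

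*Ccnd3* (chromosome 17, 47505051 to 47599691, + strand), the third D cyclin, ranged from 101.52 to 122.63 CPM in *GFP*-NSPCs and from 127.65 to 156.44 CPM in *Dbx2*-NSPCs numbered 1 to 4. It ranged from 83.48 to 117.48 CPM against 96.6 to 105.64 CPM in set 5 to 8. The groups of the first set did not overlap, but no comparison passed the test for *Ccnd3* (log2 fold change 0.18 over all samples, 0.30 and 0.07 in the sets; limma adjusted p = 0.276, 0.0789 and 0.679). The 3 D-cyclin levels of a sample summed to 6548 ± 816 CPM with *GFP* and 8160 ± 1394 CPM with *Dbx2* (SD, n = 8 each). For set 1 to 4 the sums were 6125.75 to 8386.89 CPM against 9028.28 to 9869.65 CPM, without overlap.

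Of the E-type cyclins, *Ccne1* rose in set 1 to 4 and *Ccne2* fell in set 5 to 8. *Ccne1* (chromosome 7, 38097984 to 38107534, - strand), which activates Cdk2 at the end of G1, was at 15.71, 16.58, 16.29 and 17 CPM in *GFP*-NSPC replicates 1 to 4 and at 26.33, 25.8, 29.96 and 24.76 CPM in *Dbx2*-NSPC replicates 1 to 4. In replicates 5 to 8 it was at 31.58, 27.91, 22.54 and 27.55 CPM in *GFP*-NSPCs and at 17.6, 18.64, 18.96 and 30.05 CPM in *Dbx2*-NSPCs. *Ccne1* was thus higher in every *Dbx2*-NSPC culture of the first set, and in the other set 3 of 4 *Dbx2*-NSPC cultures lay below all *GFP*-NSPC cultures while replicate 8 did not. The rise in set 1 to 4 was 1.61-fold (log2 fold change 0.68, standard error 0.153, limma adjusted p = 0.00980). In set 5 to 8 the value was -0.38 (limma adjusted p = 0.169), or -0.55 without *Dbx2*-NSPC replicate 8 (0.0304). The sets differed by -1.06 (standard error 0.248, limma interaction, adjusted p = 0.00530), while over all samples the value was 0.15 (adjusted p = 0.611).

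*Ccne2* (chromosome 4, 11191351 to 11204779, + strand), the other E cyclin, was at 68.16, 63.8, 53.28 and 84.3 CPM in *GFP*-NSPC replicates 5 to 8 and 40.83, 47.21, 48.76 and 60.44 CPM in *Dbx2*-NSPC replicates 5 to 8. The groups overlapped through *Dbx2*-NSPC replicate 8. The fall of *Ccne2* there was 1.36-fold (log2 fold change -0.44, limma adjusted p = 0.0462). That call was lost without any one of *GFP*-NSPC replicates 5, 6 and 8 or *Dbx2*-NSPC replicates 5, 6 and 7 (0.0821 to 0.133), and under median-of-ratios scaling (0.0622) and TMM scaling (0.0602). In set 1 to 4 the value was -0.07 (limma adjusted p = 0.859), and the interaction did not pass (-0.37, adjusted p = 0.421).

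*Rb1* and *E2f1*, the pocket protein gene and the factor it restrains, passed the test in no comparison. *Rb1* (chromosome 14, 73183673 to 73325822, - strand) ranged from 27.66 to 41.5 CPM in *GFP*-NSPCs and from 15.79 to 27.62 CPM in *Dbx2*-NSPCs numbered 1 to 4, apart by only 0.04 CPM. Its log2 fold change was -0.50 there (limma adjusted p = 0.125), -0.07 in set 5 to 8 (0.834) and -0.28 over all samples (0.332). *E2f1* (chromosome 2, 154559407 to 154569892, - strand) ranged from 33.32 to 44.88 CPM in *GFP*-NSPCs and from 30.27 to 54.02 CPM in *Dbx2*-NSPCs. The log2 fold change of *E2f1* over all samples was 0.07 (standard error 0.127, limma adjusted p = 0.757).

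The falls of *Cdk4* and *Cdk2* were set beside those of the genes around them, because the whole of chromosome 10 stood apart. Its 613 tested genes had a median log2 fold change of -0.37 over all samples, -0.26 in set 1 to 4 and -0.47 in set 5 to 8. The medians of the other 19 chromosomes lay between -0.09 and 0.09 over all samples, between -0.12 and 0.08 in the first set and between -0.08 and 0.22 in the other. On chromosome 10, 227 genes were called lower over all samples (37.0% of those tested there) and 22 higher (3.59%). Calls were also uneven on other chromosomes within the sets. On chromosome 4, 19.1% of genes were higher in set 1 to 4 and 21.1% lower in set 5 to 8. On chromosomes 1 and 11, 23.2% and 17.5% were higher in set 5 to 8. Over all tested genes the shares were 8.19% higher in set 1 to 4, and 11.7% lower and 11.5% higher in set 5 to 8. The member *Ccne2* lies on chromosome 4. The deviation of each sample from the 16-sample mean, as the median over chromosome 10 on the log2 scale, was -0.22 to -0.14 in *Dbx2*-NSPCs and -0.03 to 0.34 in *GFP*-NSPCs, without overlap. Among *GFP*-NSPCs it was -0.03, 0.11, 0.17 and 0.15 for numbers 1 to 4, then 0.27, 0.32, 0.34 and 0.28 for numbers 5 to 8. *GFP*-NSPC replicate 1, which has the lowest *Cdk4* and *Cdk2* of its group, is also the lowest there.

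**Figure D3:**
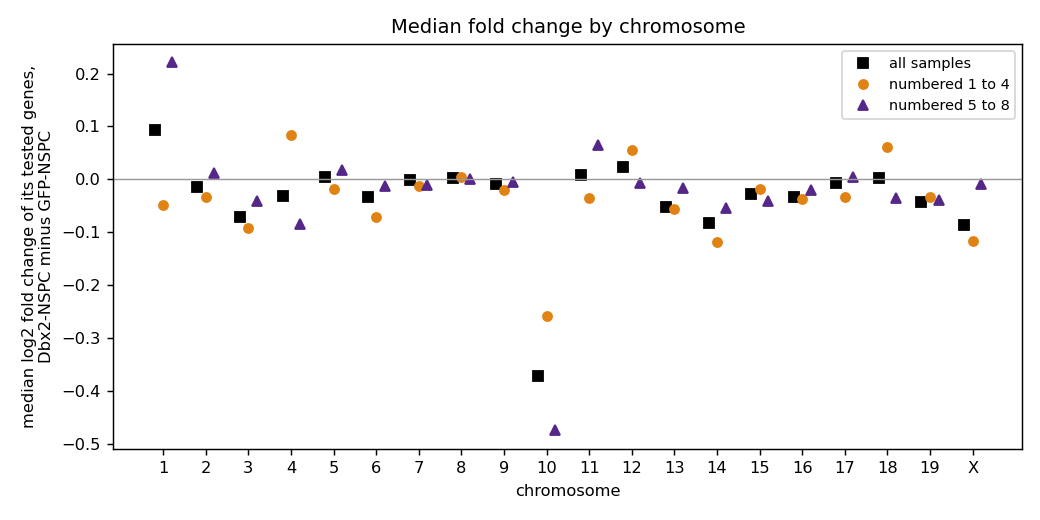
Median log2 fold change (vertical axis, *Dbx2*-NSPC minus *GFP*-NSPC, log2 of CPM + 0.5) of the tested genes of each chromosome (horizontal axis), over all samples and in each number set. Chromosome 10, which carries *Cdk2* and *Cdk4*, lies at -0.37, -0.26 and -0.47, below every other chromosome in each comparison.

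Of the 50 tested genes nearest to *Cdk4*, 24 were called over all samples, each of them lower, with a median log2 fold change of -0.48. Of the 50 nearest to *Cdk2*, a window that overlaps the first, 19 were called lower and 1 higher, with a median of -0.40. The medians around the other 8 members lay between -0.15 (*Ccne2*) and 0.05 (*Ccnd1*). To test the kinases against their surroundings, the median deviation of the 50 nearest genes was subtracted in each sample and limma was run again on all genes, a step chosen after the data were seen. *Cdk4* was then at -0.34 over all samples (adjusted p = 0.0154), -0.46 in set 1 to 4 (adjusted p = 0.0255) and -0.22 in set 5 to 8 (adjusted p = 0.0944, no longer past the threshold). *Cdk2* was at -0.40 over all samples (adjusted p = 0.150), -0.48 and -0.32 in the sets (0.161 and 0.112), and passed in none of them. Less the median of the whole chromosome, *Cdk4* was at -0.44 (limma adjusted p = 0.0164), -0.65 (0.00551) and -0.22 (0.0691), and *Cdk2* at -0.46 (0.0978), -0.64 (0.0845) and -0.28 (0.149). Subtracting the 50 nearest genes also took the call of *Ccnd1* over all samples (0.14, limma adjusted p = 0.251) and in set 5 to 8 (0.18, 0.178). When the median log2 fold change of those genes was subtracted instead, *Ccnd1* was at 0.22 in both comparisons, with no test. The call of *Ccne2* in set 5 to 8 was also lost (-0.37, 0.0617), whereas *Ccnd2* (0.57, 0.0210) and *Ccne1* (0.75, 0.00720) in set 1 to 4 stayed past the threshold. The DNA of these cultures was not measured.

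**Figure D4:**
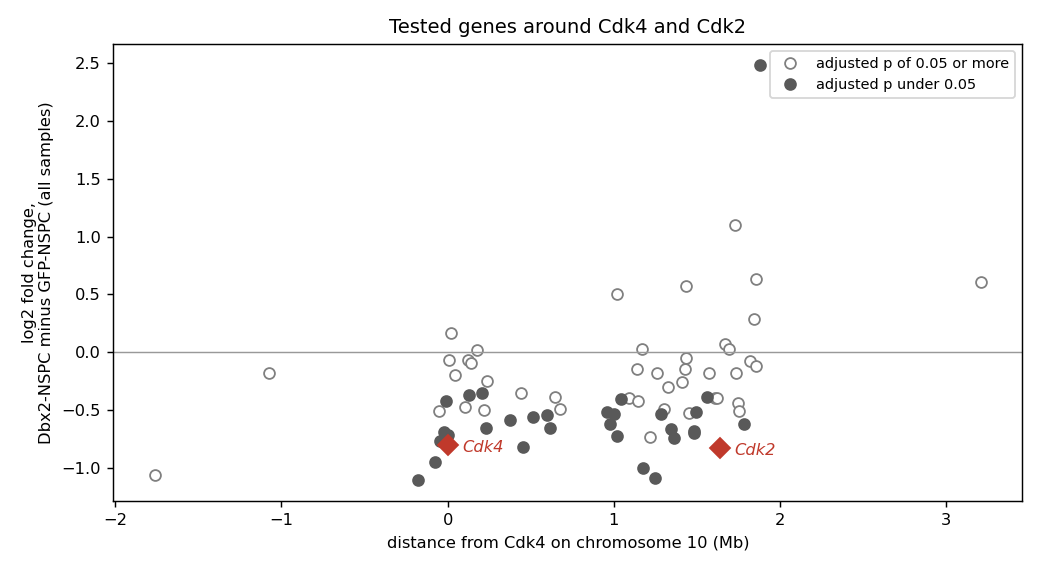
Log2 fold change over all samples (vertical axis) of the 75 tested genes of chromosome 10 from -1.76 to 3.21 Mb of *Cdk4*, with *Cdk4* and *Cdk2* included, by distance from *Cdk4* in Mb (horizontal axis). Of these, 63 lie below 0, 31 were called lower and 1 higher, and *Cdk4* and *Cdk2* (diamonds) lie at -0.80 and -0.83.

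**Figure D5:**
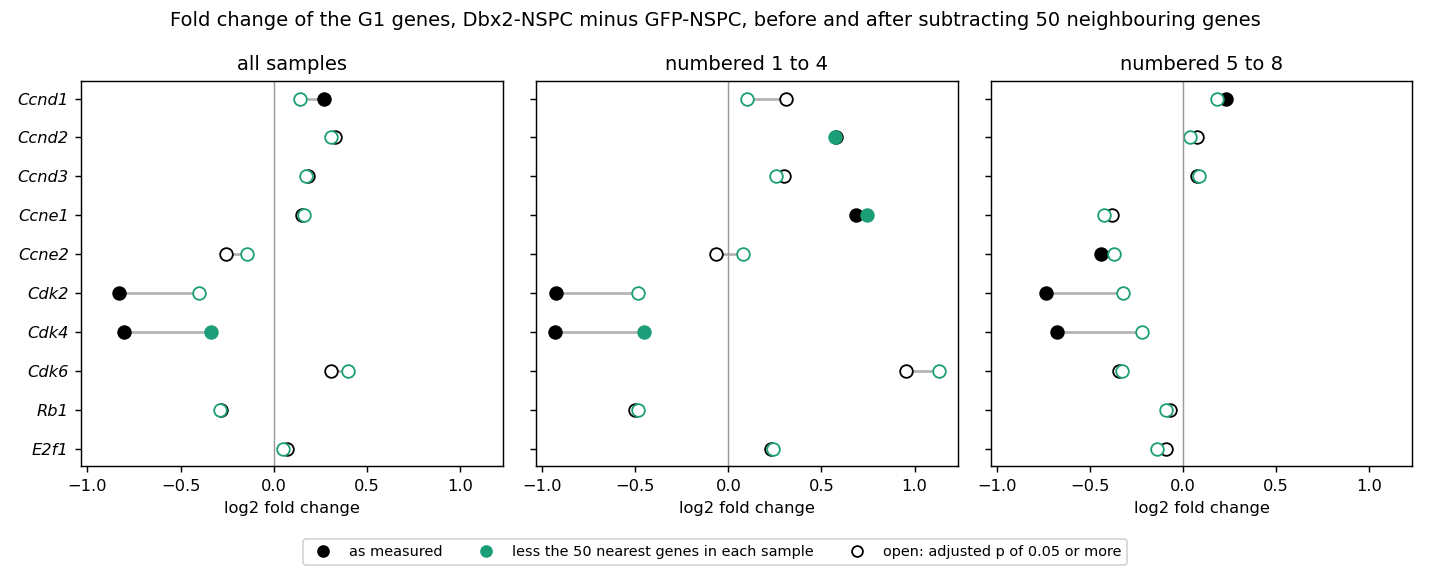
Log2 fold change (horizontal axis) of the 10 G1 genes as measured (black) and less the median deviation of the 50 nearest genes in each sample (green), over all samples and by number set; open symbols did not pass the test. *Cdk4* moves from -0.80 to -0.34 and *Cdk2* from -0.83 to -0.40 over all samples, while *Ccnd2* and *Ccne1* keep their values.

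Near neighbours and overlapping transcripts gave further values. *Tspan31*, on the opposite strand, shares 641 bases with *Cdk4* where the 3′ ends of both genes meet. It was at 6.46 to 44.99 CPM and its log2 fold change was -0.71 (limma adjusted p = 0.0383). *March9*, on the other side of *Cdk4*, was at -0.42 (limma adjusted p = 0.0341). The strand used in counting was not given in the sources used here, so a share of *Cdk4* reads from *Tspan31* was not tested. *Pmel*, which overlaps 837 bases of *Cdk2* at its start, was at no more than 2.03 CPM in any sample. *Lpar6*, inside *Rb1* on the other strand, was at 41.26 to 84.49 CPM.

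The genes whose levels followed the members most closely over the 16 samples were found by Pearson's r among 8650 genes of at least 10 CPM on average. These coefficients share the contrast between the transgenes and are a description only. For *Cdk4* they were *Shmt2* (0.949), *Plekhj1* (0.937) and *Lmnb2* (0.934), all on chromosome 10. For *Cdk2* they were *Srsf1* (0.924), *Cdh6* (0.921) and *Prkd3* (0.914), none of them on chromosome 10. For *Ccnd1* they were *Tnfrsf1a* (0.921), *Svop* (0.897) and *Plbd2* (0.892), for *Ccnd2* *Pebp1* (0.926), *Micu2* (0.925) and *Ogdhl* (0.911), and for *Ccne1* *Pou3f1* (0.851), *Fam81a* (0.828) and *Alg11* (0.822).

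The rest of the pathway was read from lists of other cell cycle genes, of which 97 were tested; over all samples 14 were called lower and 4 higher, with a median log2 fold change of -0.17. Of all tested genes, 7.78% were called lower and 8.03% higher over all samples, 15.8% in all, with a median of -0.022, and the list counts that follow are read against these values. Among 6 tested CDK inhibitors, *Cdkn1a*, which encodes p21, rose (log2 fold change 1.14, limma adjusted p = 0.0178) and *Cdkn1b*, which encodes p27, fell (-0.44, 0.0103). *Cdkn1a* rose in both sets, from 363.9 to 1273.46 CPM in *GFP*-NSPCs to 1522.41 to 2263.51 CPM in *Dbx2*-NSPCs numbered 1 to 4, and from 1570.38 to 1867.02 CPM to 2435.03 to 2650.83 CPM in set 5 to 8. Its log2 fold change was 1.70 in the first set and 0.57 in the other, and the interaction passed (-1.13, adjusted p = 0.0191). The *GFP*-NSPC cultures numbered 5 to 8 thus held more *Cdkn1a* RNA than any *GFP*-NSPC culture numbered 1 to 4.

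Of 12 tested genes of cyclin turnover, 3 fell over all samples and the other 9 did not pass the test. Most encode parts of ligases, which mark cyclins and inhibitors for degradation. The list also holds *Cdc34*, a conjugating enzyme, and *Usp2*, which removes ubiquitin. *Skp2*, whose ligase removes p27, fell in every comparison (-0.86, limma adjusted p = 0.000547) and its groups did not overlap, at 25.09 to 46.32 CPM with *GFP* and 15.63 to 23.97 CPM with *Dbx2*. *Fbxw7*, whose ligase removes cyclin E, fell (-0.42, 0.00631), as did the shared ligase subunit gene *Rbx1* (-0.24, 0.0373). *Cdc34* and *Fbxo4* differed between the sets (limma interaction -0.62, adjusted p = 0.0180 and 1.05, adjusted p = 0.0418).

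Among 11 other pocket protein, E2F and DP genes, 2 fell and the other 9 did not pass: *E2f7*, a repressor E2F (-0.95, limma adjusted p = 0.0194), and *E2f5*, a partner of the other pocket proteins (-0.64, 0.0281). *Tfdp2*, a dimer partner of E2F factors, differed between the sets (-0.54, limma interaction, adjusted p = 0.0353). Of 24 E2F target genes of the G1/S transition, 4 fell over all samples and 20 did not pass, with a median of -0.22. They included the replication factor genes *Cdc45* (-0.67, limma adjusted p = 0.0124) and *Mcm7* (-0.52, 0.0139) and the DNA repair gene *Ung* (-0.46, 0.0250). Limma called 0 of the 24 in set 1 to 4 (4 at an unadjusted p under 0.05, 0 by edgeR and 0 by DESeq2). In set 5 to 8 it called 6, of which 5 fell, where 23.2% of all tested genes were called and 11.7% were called lower.

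Of 12 tested later cyclins and regulators of Cdk1, 3 fell over all samples and 9 did not pass. These were *Ccna2*, the S-phase and G2 cyclin (-0.64, limma adjusted p = 0.0157), *Cdc25a*, the phosphatase that activates CDKs (-0.38, 0.0238), and *Ccnb1*, the mitotic cyclin (-0.35, 0.0333). *Ccnb2* and *Cdc25b* differed between the sets (limma interaction 1.40, adjusted p = 0.000767 and 0.68, adjusted p = 0.0350). Of the 3 genes of the CDK-activating kinase limma called 0 over all samples (2 at an unadjusted p under 0.05, 0 by edgeR and 0 by DESeq2; median -0.24), and of the 7 of the MuvB, B-Myb and Foxm1 list it also called 0 (1 at an unadjusted p under 0.05, 0 by edgeR and 0 by DESeq2; median -0.29).

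Of 22 tested cyclins and CDKs outside the cell cycle core, 3 rose and 1 fell. *Ccng1*, a p53 target, rose (0.71, limma adjusted p = 0.00805), as did *Ccny*, a membrane-bound cyclin (0.30, 0.0312), and *Cdk17* fell (-0.77, 1.93e-05). *Ccnl2* and *Cdk11b*, which act in splicing, differed between the sets (limma interaction -1.86, adjusted p = 1.25e-07 and -1.36, adjusted p = 2.29e-07). Whether the genes around this pair shared the difference is not reported here. *Cdk17* and *E2f7* also lie on chromosome 10. On that chromosome the lists hold 6 tested genes besides *Cdk2* and *Cdk4*, with a median of -0.48, of which 2 were called lower. Less their 50 nearest genes, *Cdk17* was at -0.15 (limma adjusted p = 0.283) and *E2f7* at -0.40 (0.329) over all samples, and in set 5 to 8 both passed, at -0.32 (0.0287) and -0.93 (0.0216). Less the chromosome, *Cdk17* passed over all samples (-0.40, limma adjusted p = 0.00179) and *E2f7* did not (-0.58, 0.136), while in set 5 to 8 both passed (-0.45, 0.00305 and -0.96, 0.0217). The 91 genes of these lists on other chromosomes had a median of -0.17, with 12 called lower and 4 higher.

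Markers of cell state also moved with the transgene, and their part in the values above was not tested. Of 10 stem and progenitor markers, 4 fell over all samples and 6 did not pass, with summed levels of 6804 to 7448 CPM in *GFP*-NSPCs and 5798 to 6849 CPM in *Dbx2*-NSPCs. They were *Pax6* (-0.74, limma adjusted p = 0.000250), *Fabp7* (-0.72, 0.0149), *Msi1* (-0.56, 0.0147) and *Egfr* (-0.45, 0.00433). Of 5 astrocyte markers 2 rose and 1 fell, with sums of 368.47 to 1065.58 CPM against 769.99 to 1028.38 CPM. Of 6 tested neuroblast and neuron markers limma called 0 over all samples (0 at an unadjusted p under 0.05, 0 by edgeR and 0 by DESeq2). In set 1 to 4 it called 4 lower, and in set 5 to 8 it called 2 higher. Among them *Dcx* was at 1.61 to 6.84 CPM with *GFP* and 0 to 0.33 CPM with *Dbx2* in set 1 to 4. In set 5 to 8 *Dcx* was at 0 to 0.82 CPM and 3.52 to 5.42 CPM. Its log2 fold changes of -2.87 and 3.02 rest on few reads, since the lower group was under the detection floor in each set. *Dcx* passed the filter only through its higher groups, so its calls carry little weight. *Rbfox3* was called in both sets. In set 1 to 4 it was at 3.17 to 8.66 CPM with *GFP* and 0.36 to 1.93 CPM with *Dbx2*. In set 5 to 8 it was at 0.31 to 1.64 CPM and 4.93 to 14.86 CPM. *Snap25*, called in set 1 to 4, was at 0.81 to 3 CPM and 0 to 0.64 CPM. Their lower groups were also at or near the floor, so these calls carry little weight too. *Dlx2*, called lower in set 1 to 4, was at 10 to 18.13 CPM and 2.87 to 5.14 CPM. Over all samples the neuroblast and neuron markers summed to 14.4 to 51.15 CPM with *GFP* and 17.61 to 43.22 CPM with *Dbx2*. Of 3 tested ependymal markers 2 rose over all samples, *Ccdc153* (1.75, limma adjusted p = 0.0102) and *Rarres2* (1.24, 0.0226), and *Foxj1* did not pass (0.56, 0.104). *Ccdc153* was at 0 to 2.88 CPM with *GFP* and 1.01 to 7.49 CPM with *Dbx2*. *Rarres2* was at 0.55 to 4.6 CPM and 2.82 to 10.27 CPM. With *GFP* both were near the detection floor, so the sizes of these rises rest on few reads. The ependymal list summed to 10.3 to 25.8 CPM with *GFP* and 21.9 to 44.9 CPM with *Dbx2*. Of 2 tested oligodendrocyte markers limma called *Mobp* higher, at most 0.34 CPM with *GFP*, below the detection floor, and 0.36 to 4.97 CPM with *Dbx2*. *Mobp* passed the filter only through *Dbx2*-NSPCs, and the size of its change depends on the pseudocount, so that call carries no weight. The oligodendrocyte list summed to 3.68 to 8.87 CPM with *GFP* and 7.06 to 15.3 CPM with *Dbx2*. Sums were at most 5.83 and 8.39 CPM in the groups for the endothelial and pericyte markers.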

How the data were processed

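Per the study's methods, the authors removed adapters and poly-A stretches with bbduk, mapped reads of 101 bases to GRCm38 (Ensembl release 96) with STAR 2.5.0a, and deposited CPM, each gene's reads scaled to the sample total. The tool used for counting is not given in the sources used here. Libraries started from 100 ng of RNA. Of the values above 0 in a sample, 99.992% to 100% were whole reads (tolerance 0.1 read beyond rounding), and all 56 pairs of samples within a group differed by more than sampling noise. All columns were used (0 left out). The 10 members and the other gene lists were chosen with earlier results of these data known.

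The filter required over 1 CPM in 4 or more of the 16 samples. For the 12533 genes that passed, log2(CPM + 0.5) was fitted with limma 3.58.1 (R 4.3.3; lmFit, eBayes with trend, 2-sided) over all samples, within each number set, and for the interaction, and p-values were adjusted by Benjamini-Hochberg over all of them. The cell line, the study's covariate, is not in the labels, so none was used. Exact permutation tests enumerated all splits. Same-numbered samples deviated together (correlations of their deviations from the group means of 0.152 to 0.303, every pair over 0.1). Samples of other numbers in the same set did so to a like degree (mean correlations of 0.161 to 0.242). Within the number sets the same-number correlations were -0.00741 to 0.119. The correlations thus do not single out same-numbered samples as pairs, and the block by number was fitted as an alternative only. Alternatives were other pseudocounts (0.1 and 2), filters, scalings (TMM, median of ratios), no trend, the number set as a covariate, edgeR 4.0.16, DESeq2 1.42.0 (both run on recovered reads), and leaving out each sample. The subtraction of neighbouring genes was added after the data were seen. Named genes were the members, *Dbx2*, up to 3 list genes with the smallest adjusted p and up to 2 with the smallest adjusted p of the interaction, the 3 genes most like each called member, and genes that overlap or adjoin a member. Positions are from GENCODE M21. The fits were tested on simulated data. Python 3.11.15 and matplotlib 3.10.9 were used for tables and plots.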

Additional observations from a re-analysis of the deposited data

Results flagged for a closer look

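Among 60 checks of a sample against its group, 2 stood apart by Dixon's criterion, where about 1 in 20 would by chance. *Ccnd2* in *Dbx2*-NSPC replicate 7 was at 2458.16 CPM, below 2849.63 to 2926.97 CPM in the other 3 *Dbx2*-NSPC cultures numbered 5 to 8. *Ccne1* in *Dbx2*-NSPC replicate 8 was at 30.05 CPM, above 17.6 to 18.96 CPM in the other 3 cultures of that group and set. The effect of the transgene differed between the number sets for *Ccnd2*, by -0.50 on the log2 scale (limma interaction, adjusted p = 0.0480), and for *Ccne1*, by -1.06 (adjusted p = 0.00530).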

How the results depend on the processing

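No member changed direction where its value was called. The replicate block moved the number of genes called over all samples from 1982 to 2723. It added *Ccnd2* (limma adjusted p = 0.0284), lost *Cdk2* in set 1 to 4, passed the interaction of *Cdk6* and changed no other call of a member. Whether same-numbered samples are pairs is not known, so calls that pass only with this block are not relied on. With the number set as a covariate 3034 genes were called over all samples. Keeping genes of low level left 1299 of 17749 genes called in set 1 to 4, 2195 in set 5 to 8 and 1099 in the interaction. Of the 10 members, it left 2, 2 and 1 called there. A pseudocount of 0.1 and eBayes without trend each left 2 members called in set 5 to 8, beside 2812 and 2348 of 12533 genes. In the interaction each left 1 member, beside 1121 and 1034 genes. TMM and median-of-ratios scaling also left 1 member in the interaction, beside 1188 genes each. Less the 50 nearest genes in each sample, limma called 1 member over all samples, 0 in set 5 to 8 (3 at an unadjusted p under 0.05) and 1 in the interaction. Of all 12533 genes it then called 1773, 2551 and 925. Less the chromosome, it called 0 members in set 5 to 8 (5 at an unadjusted p under 0.05), beside 2748 of all genes. Leaving out each sample in turn gave 1684 to 2210 genes over all samples, 1286 to 2209 in set 1 to 4, 2349 to 2754 in set 5 to 8 and 1031 to 1307 in the interaction. The members called were then 3 in every case over all samples, 2 to 5 and 2 to 4 in the sets and 1 to 2 in the interaction. Where no construction is named, the cause was not tested. Cultures of 4 per group and set limit the exact tests to p = 0.0286, and reads near the floor limit *Cdk6* in set 1 to 4.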
